A study of Mus musculus with 6 samples.

Results

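The 5 mouse dopamine receptor genes, Drd1, Drd2, Drd3, Drd4 and Drd5, were examined in the frontal cortex of mice given the histone deacetylase inhibitor SAHA or its vehicle. They were found by gene symbol among the probe sets that pair with 1 symbol, and all 5 of 5 were measured, out of 19938 genes in all, each by 1 probe set. Frontal cortex from both sides of the brain came from wild-type 129S6/SvEv mice aged 8 to 12 weeks, with 3 libraries per group and 1 whole-transcript array per library. The SAHA group (suberoylanilide hydroxamic acid, vorinostat) had a dose of 20 mg/kg by the intraperitoneal route over 21 days, the control group had vehicle, named saline in the titles, over the same period, and both were killed 1 day after dosing ended. It is not stated in the labels that the libraries are from different mice, so the p-values cover the spread among these arrays alone. How much of that spread is technical is not known.

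Dopamine receptors are G-protein-coupled receptors of 2 classes. The D1-like receptors, encoded by Drd1 and Drd5, couple to stimulatory G proteins and raise cyclic AMP, and the D2-like receptors, encoded by Drd2, Drd3 and Drd4, couple to inhibitory G proteins and lower it. In the frontal cortex dopamine arrives in axons from the midbrain and acts on pyramidal neurons and interneurons in working memory and attention, and the adjoining striatum carries Drd1 and Drd2 at high levels in its medium spiny neurons.

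SAHA acts on enzymes bound to chromatin, so the sequence before the annotated start is shown for the 2 receptors whose groups did not overlap, Drd4 and Drd5, and for the receptor that varied most between libraries, Drd2. They are RefSeq sequences of build GRCm38.p6, on the plus strand, cut before the outermost annotated start of the gene, at chr7:141291768-141291973 for Drd4, chr5:38319259-38319508 for Drd5 and chr9:49340153-49340359 for Drd2. Capitals mark the core of the GC box, the site of Sp1-type factors, spelled GGGCGG or, on the other strand, CCGCCC, with overlapping matches counted.
Drd4: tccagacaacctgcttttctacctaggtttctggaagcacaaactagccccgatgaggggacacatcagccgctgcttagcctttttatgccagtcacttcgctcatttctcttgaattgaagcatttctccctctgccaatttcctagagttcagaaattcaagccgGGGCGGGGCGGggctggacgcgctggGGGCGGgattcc
Drd5: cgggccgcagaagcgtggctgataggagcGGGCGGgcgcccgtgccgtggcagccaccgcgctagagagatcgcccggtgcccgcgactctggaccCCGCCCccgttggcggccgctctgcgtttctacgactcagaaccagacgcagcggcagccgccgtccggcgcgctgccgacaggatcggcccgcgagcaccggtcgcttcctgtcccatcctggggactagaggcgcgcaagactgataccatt
Drd2: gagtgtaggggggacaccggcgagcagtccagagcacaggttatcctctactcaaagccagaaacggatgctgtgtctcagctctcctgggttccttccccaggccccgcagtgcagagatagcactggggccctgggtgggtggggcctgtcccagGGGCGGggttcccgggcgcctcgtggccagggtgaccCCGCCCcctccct

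The GC box core occurred 3 times before Drd4 and 2 times each before Drd5 and Drd2. In windows of 300 bases, from 250 before a start to 50 after it, it was found at least once in 35.7% of the 32851 RefSeq windows of that length. Both windows of Drd1, which has 2 annotated starts, held it 1 time, and the window of Drd3 held it 0 times. CpG dinucleotides numbered 38 in the Drd5 window, 23 in that of Drd2 and in the first of Drd1, 15 in that of Drd4, 6 in the second of Drd1 and 2 in that of Drd3, beside a median of 7 over all windows. The TATA box core TATAAA, present on either strand in 13.6% of windows, and the cyclic AMP response element TGACGTCA, present in 1.79%, were found in 0 of the receptor windows.

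Signals are the deposited RMA values on a log2 scale. The median over probe sets was 6.66, 6.70 and 6.71 in the saline arrays and 6.75, 6.72 and 6.74 in the SAHA arrays. Every SAHA array thus had a higher median than every saline array. Of 8 listed markers of excitatory cortical neurons, 7 were measured. Slc17a7, the vesicular glutamate transporter of these neurons, was at 10.4 in saline and 10.5 in SAHA, and Camk2a, a kinase of the same neurons, at 12.4 in both. Of the 7, 4 were higher in SAHA and 3 lower. Emx1, at 0.23, and Neurod6, at -0.23, were the 2 at an unadjusted p under 0.05 in limma, beside 17.4% of all genes. 2 libraries stood apart in sex-linked transcripts. Saline replicate 1 had an Xist signal of 10.9, where the other libraries lay between 4.63 and 4.88, and SAHA replicate 3 had the Y-linked Eif2s3y at 7.80, where the others lay between 9.18 and 9.25. Saline replicate 1 carried the Y-linked transcripts too, with Eif2s3y at 9.20. Each receptor is given with and without these 2 libraries. Markers of blood, 4 of 9 listed being measured, were higher in SAHA for 4 of 4, and those of choroid plexus for 6 of 7, where 52.9% of all genes were higher. After quantile normalization it was 4 of 4 and 4 of 7, and the choroid median went from 0.14 to 0.062. The mean signal of the blood markers ranged from 5.80 to 5.95 over the saline libraries and from 6.09 to 6.19 over the SAHA libraries, and that of the choroid markers from 6.13 to 6.35 and from 6.29 to 6.35. Ttr, the most abundant secreted protein of the choroid plexus, differed by -0.29. The part of these cells in the receptor values was not tested.

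The comparison of SAHA with saline asks whether repeated deacetylase inhibition is followed by other receptor RNA levels in this tissue. No dopamine receptor passed the test: in limma with Benjamini-Hochberg adjustment over all genes, 0 of 5 had an adjusted p under 0.05, as did 0 of 19938 genes (0%). At an unadjusted p under 0.05, 1 receptor, Drd4, was called, and so were 17.4% of all genes, 11.9% higher and 5.56% lower. Other variance models called a few genes and no receptor: 28 with a variance trend in limma and 1 with the plain two-sample test. Drd4 had the difference farthest from 0, at 0.24 log2 in SAHA minus saline, followed by Drd2 at 0.22, while Drd5, Drd1 and Drd3 were at -0.080, -0.023 and 0.018. The groups did not overlap for Drd4, which was higher in SAHA, and for Drd5, which was lower, and they did not overlap for 23.9% of all genes, 13.6% higher and 10.4% lower. Over the receptors the median difference was 0.018, where that of all genes was 0.011.

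**Figure D1:**
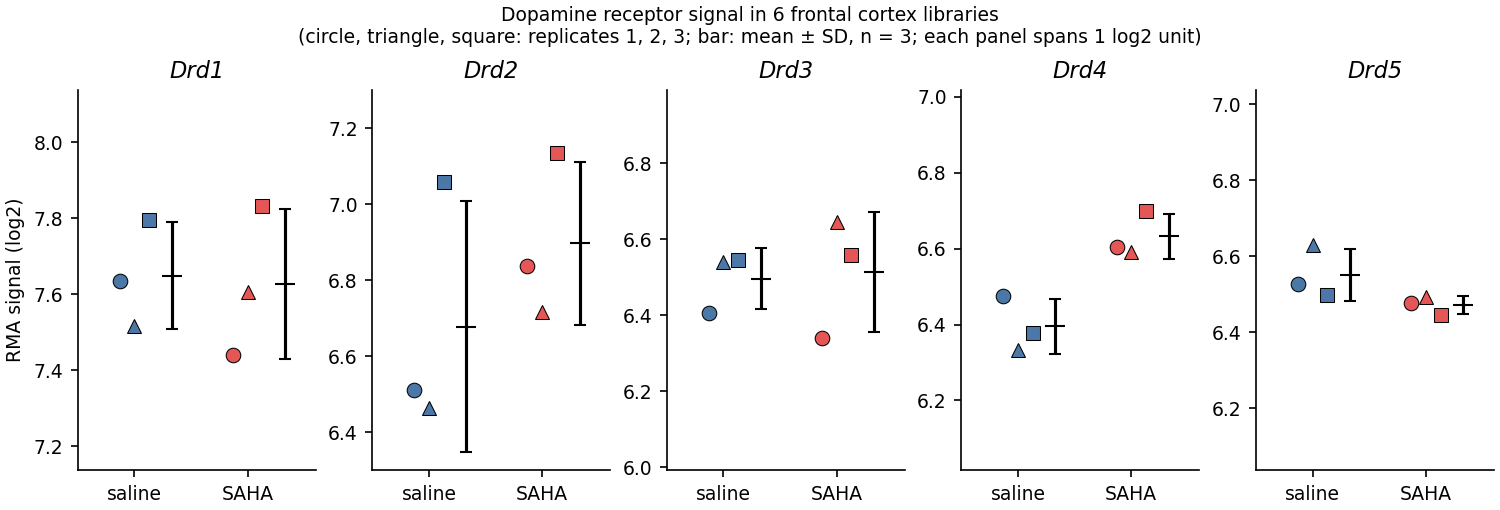
RMA signal (log2) of each dopamine receptor in the 3 saline libraries (blue) and the 3 SAHA libraries (red), with the mean ± SD of each group as a bar; every panel spans 1 log2 unit. All 3 SAHA values of Drd4 lie above its saline values and all 3 of Drd5 lie below, while Drd1 and Drd2 are highest in replicate 3 of both groups.

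Among the D1-like receptors, Drd1, the main D1-like receptor of striatum and cortex, had log2 signals of 7.63, 7.52 and 7.80 in the saline libraries and 7.44, 7.61 and 7.83 in the SAHA libraries. The groups overlapped over their whole range, and replicate 3 was the highest library in each. The difference was -0.023 (SE 0.11, 95% confidence interval -0.28 to 0.24; limma adjusted p = 0.933), so the interval runs from 0.822-fold to 1.18-fold. With the 2 libraries that stood apart left out it was -0.13. The sign turned without saline replicate 3, at 0.051, without SAHA replicate 1, at 0.070, and with array weights, at 0.0068.

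Drd5, the other D1-like receptor, had 6.53, 6.63 and 6.50 in saline and 6.48, 6.49 and 6.45 in SAHA. The SAHA libraries lay within a narrow band just under the lowest saline library. Means were 6.55 ± 0.068 and 6.47 ± 0.0235 (SD, n = 3), and the difference was -0.080 (SE 0.061, 95% confidence interval -0.22 to 0.060; limma adjusted p = 0.508). It was -0.080 as well with the 2 libraries that stood apart left out, and -0.042 without saline replicate 2, the highest library.

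Among the D2-like receptors, Drd2, an autoreceptor of dopamine neurons and the receptor of the striatal indirect pathway, had 6.51, 6.46 and 7.06 in saline and 6.84, 6.72 and 7.14 in SAHA. Saline replicate 3 exceeded 2 of the 3 SAHA libraries, so the groups overlapped. The SD within groups, 0.28 pooled, was greater than that of 98.2% of all genes, where genes of like signal (within 0.25 log2 of its mean) had a median of 0.10. The difference was 0.22 (SE 0.17, 95% confidence interval -0.18 to 0.61; limma adjusted p = 0.521), an interval from 0.885-fold to 1.53-fold. It depended on the libraries: it was 0.41 without saline replicate 3, 0.14 without saline replicate 1, 0.11 without saline replicate 2, 0.10 without SAHA replicate 3 and 0.016 without both saline replicate 1 and SAHA replicate 3, with adjusted p in limma between 0.233 and 0.986 in these. With 1 probe set, the long and short splice forms of Drd2 cannot be told apart.

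Drd3, a receptor concentrated in the ventral striatum and the islands of Calleja, had 6.40, 6.54 and 6.54 in saline and 6.34, 6.64 and 6.56 in SAHA. The SAHA values enclosed the saline values on both sides. The difference was 0.018 (SE 0.090, 95% confidence interval -0.19 to 0.23; limma adjusted p = 0.933), and its sign turned with the scaling, at -0.021 on median-centred arrays, -0.064 on quantile-normalized ones and -0.057 under cyclic loess. It also turned without saline replicate 1, at -0.028, without SAHA replicate 2, at -0.047, without SAHA replicate 3, at -0.0044, and with both libraries that stood apart left out, at -0.050.

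Drd4, a D2-like receptor known in the prefrontal cortex, had 6.47, 6.33 and 6.38 in saline and 6.60, 6.59 and 6.70 in SAHA. Every SAHA library lay above every saline library, with a gap of about the size of the spread within saline. Means were 6.40 ± 0.072 and 6.63 ± 0.059 (SD, n = 3), a 1.18-fold higher level in SAHA (95% confidence interval 1.06 to 1.31). The difference of 0.24 (SE 0.065) had an unadjusted p of 0.0070 and an adjusted p of 0.161 in limma, and the exact two-sided permutation test over the libraries gave 0.1, the smallest p that 3 against 3 allows. It was 0.24 with the 2 libraries that stood apart left out, between 0.20 and 0.28 with any single library left out, and 0.16 after quantile normalization or cyclic loess. Adjusted p lay between 0.129 and 0.413 over all the alternatives in limma.

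**Figure D2:**
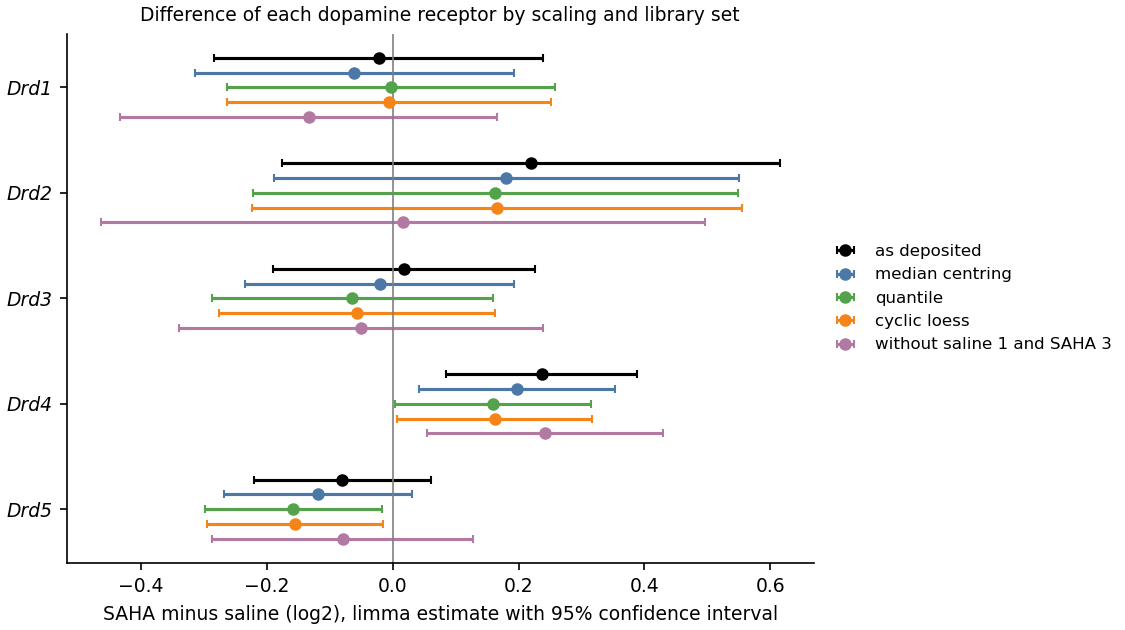
SAHA minus saline (log2) of each receptor as a limma estimate (point) with its 95% confidence interval (line), on the deposited values, after 3 other scalings, and without the 2 libraries that stood apart. The estimate of Drd4 stays above 0 in all 5 settings and that of Drd5 below 0, while Drd2 goes from 0.22 to 0.016 when the 2 libraries are left out.

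Brightness of the probe set bore on how these values read. Drd3, Drd4 and Drd5 had nearly the same mean signal, 6.51, brighter than 39.2% to 39.3% of genes, with Drd2 at 46.3% and Drd1 at 65.4%. Probe sets differ in affinity and genes were not measured per length, so these ranks do not order the receptors by RNA amount, and no detection calls were used here. Genes within 0.25 log2 of the signal of Drd4 had a median difference of 0.083, and 71.7% of them were higher in SAHA, where the share over all genes was 52.9%. Of these like genes, 22.0% were higher with no overlap between the groups and 20.2% were higher at an unadjusted p under 0.05. Relative to that median, Drd4 was higher by 0.15 and Drd5 differed by -0.16. Genes of the signal of Drd1 had a median difference of -0.024, next to its own -0.023.

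Quantile normalization and cyclic loess, which take away most of that shift, left Drd4 and Drd5 at similar distances from 0 on opposite sides. Drd4 was at 0.16 in both, with an unadjusted p of 0.0470 in limma after quantile normalization (adjusted 0.373). Drd5 was at -0.16 (SE 0.060) after quantile normalization, with an unadjusted p of 0.0318 in limma (adjusted 0.328). After cyclic loess Drd5 was at -0.15. The share of all genes at an unadjusted p under 0.05 was not counted in these scalings.

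**Figure D3:**
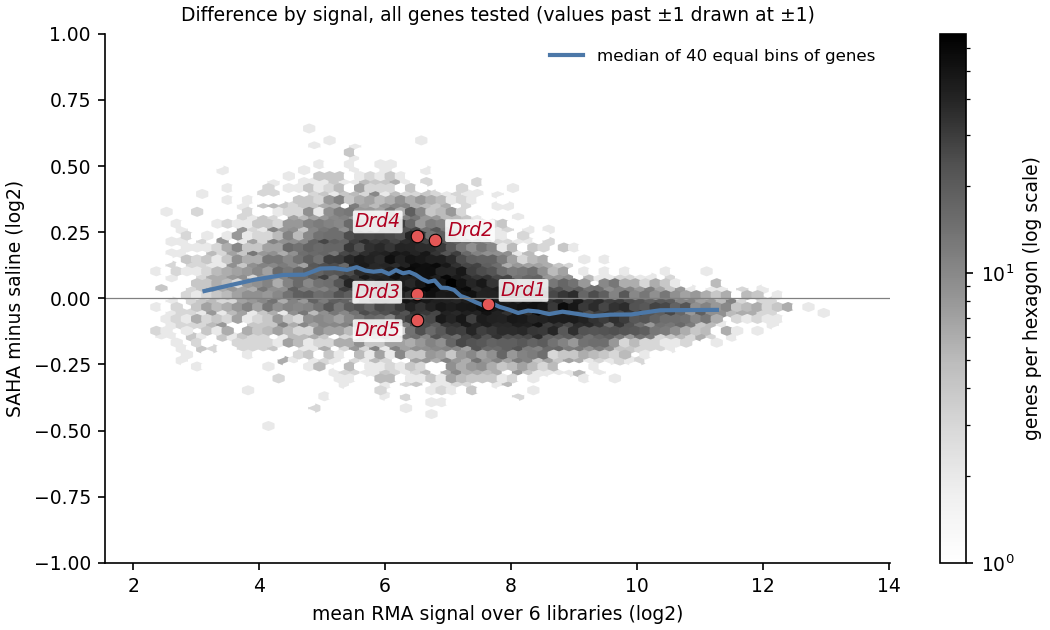
SAHA minus saline (log2) against the mean RMA signal (log2) for all 19938 genes, as hexagons shaded by the number of genes, with the 5 receptors in red and a blue line through the medians of bins of equal numbers of genes. The line lies above 0 at the signal of Drd3, Drd4 and Drd5, so that Drd5 sits under both the line and 0.

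Drd1 and Drd2 were highest in replicate 3 of each group, which prompted a comparison with genes of striatal medium spiny neurons. In bulk tissue a change in cell number and a change in RNA per cell cannot be told apart. Of 16 listed markers shared by both kinds of medium spiny neuron, 15 were measured, and 8 of these had their highest signal in a replicate 3 library. Genes of other cell types did so too: 5 of 7 myelin markers and 5 of 7 choroid plexus markers were highest in a replicate 3 library. Each group has 1 replicate 3 library among its 3, and the share over all genes was not counted. The myelin median relative to each gene's mean was 0.16 in SAHA replicate 3 and -0.15 in both other SAHA libraries. Pearson's r with Drd1 over the 6 libraries ran from 0.19 for Mag to 0.82 for Cnp among the 7 myelin markers. At least 0.8 was reached by 1 of these 7. It was also reached by 1 of 7 choroid plexus, 1 of 8 astrocyte, 1 of 4 blood and 2 of 15 shared medium spiny neuron markers. For the 15 shared medium spiny neuron markers, the median relative to each gene's mean was -0.024, -0.041 and 0.11 in the saline libraries. In the SAHA libraries it was -0.051, -0.11 and 0.045. Rgs9, a regulator that shortens G-protein signalling in the striatum, was at 7.07, 7.09 and 7.76 in saline and 7.03, 6.89 and 7.52 in SAHA. Pde10a, a striatal phosphodiesterase of cyclic nucleotides, was at 8.79, 8.74 and 9.38 and at 8.57, 8.52 and 8.87. Both were picked after their values were seen. In both the third saline library and the third SAHA library were the highest of their groups, as they were for Drd1 and Drd2. Other shared markers peaked elsewhere. Gnal and Meis2 were highest in saline replicate 1 and Scn4b in saline replicate 2. Bcl11b and Rxrg were highest in SAHA replicate 1, and Foxp1 and Rasd2 in SAHA replicate 2.

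Over the 6 libraries, Pearson's r between Drd1 and the marker median was 0.746 (exact permutation p = 0.0875, adjusted 0.379 over the 5 receptors) and Spearman's rho 0.771 (exact p = 0.103, adjusted 0.514). Without saline replicate 3 and SAHA replicate 2, the libraries farthest from the median, r was 0.975. For Drd2, r was 0.650 (exact permutation p = 0.151, adjusted 0.379) and rho 0.486 (exact p = 0.356, adjusted 0.889), and r was 0.723 without the same 2 libraries. With 12 markers, leaving out those that cortical neurons also express, r was 0.758 for Drd1 and 0.685 for Drd2. Without saline replicate 3 and SAHA replicate 3, the farthest there, it was -0.098 for Drd1 and -0.41 for Drd2. In either marker set, leaving out the farthest libraries takes away much of the range of the marker median. These values therefore cannot show which libraries the relation rests on. For Drd3, Drd4 and Drd5, r was 0.0066, -0.20 and -0.22, with exact permutation p of 0.990, 0.685 and 0.668. Groups of 3 are too small for a value within groups. The part of striatal or myelin RNA in the values of Drd1 and Drd2 was not tested.

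**Figure D4:**
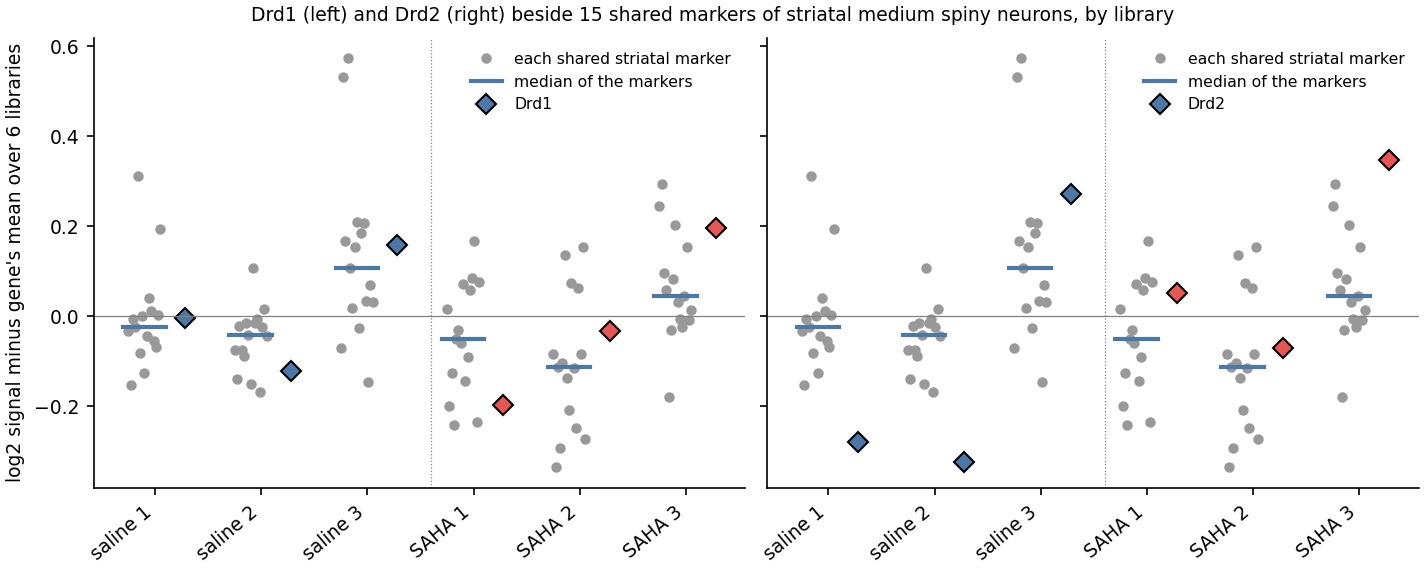
Signal (log2) relative to each gene's mean over the 6 libraries, for Drd1 (left, diamonds) and Drd2 (right, diamonds) beside 15 shared markers of striatal medium spiny neurons (grey points) and their median (blue bar). The median is highest in saline 3, at 0.11, and in SAHA 3, at 0.045, where Drd1 and Drd2 are also highest.

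Between the groups, the shared markers were lower in SAHA for 10 of 15 and higher for 5, with a median of -0.075 and 0 at an unadjusted p under 0.05, beside 17.4% of all genes. The members of smallest p were Gnal, the stimulatory G protein subunit that couples Drd1 in the striatum, at -0.22 (SE 0.10), Pde1b, another phosphodiesterase, at -0.14 (SE 0.072), and Bcl11b, a transcription factor, at 0.16 (SE 0.082). Of 7 genes of the direct pathway, whose neurons carry Drd1, 3 were at an unadjusted p under 0.05. Tac1, the substance P precursor, had means of 8.02 ± 0.22 for saline and 7.59 ± 0.20 for SAHA (SD, n = 3), a difference of -0.43, and the groups overlapped. Slc35d3, which acts in Drd1 trafficking, and Isl1, a transcription factor, were higher, at 0.21 (SE 0.062) and 0.25 (SE 0.10), and Pdyn, the dynorphin precursor, was at -0.048 (SE 0.077). Of the indirect pathway, whose neurons carry Drd2, 0 of 4 measured genes reached it: Gpr6, an orphan receptor, was at 0.24 (SE 0.13), Gpr52, another one, at -0.081 (SE 0.056) and Penk, the enkephalin precursor, at -0.17 (SE 0.14). Adjusted p in limma was at least 0.176 for all the genes of these 3 lists.

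The genes around the receptors were grouped by role. Of 14 measured genes for dopamine synthesis, transport and breakdown, 5 were higher and 9 lower, with a median of -0.016, and 3 were at an unadjusted p under 0.05 beside 17.4% of all genes. Slc6a2, the noradrenaline transporter that also clears cortical dopamine, had means of 6.08 ± 0.039 for saline and 6.37 ± 0.11 for SAHA (SD, n = 3), a difference of 0.28 that was 0.19 after quantile normalization. Ddc, the decarboxylase that makes dopamine from L-DOPA, differed by 0.20 (SE 0.061) as deposited and by 0.11 on quantile-normalized arrays. Maob, an oxidase of the outer mitochondrial membrane that degrades dopamine, was at 7.37 ± 0.18 and 7.06 ± 0.097 (SD, n = 3), a difference of -0.31 that was -0.32 after quantile normalization. Maoa, the related oxidase, was at -0.20 (SE 0.098).

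Of the genes by which dopamine neurons are known, Th, the rate-limiting enzyme of synthesis, was at 0.073 (SE 0.074), Slc6a3, the dopamine transporter, at -0.014 (SE 0.18), and Slc18a2, the vesicular monoamine transporter, at -0.017 (SE 0.11). In the wider list of midbrain dopamine neuron markers, 9 of 14 were higher and 5 lower, among the latter Nr4a2 and Chrna6, both at -0.19. At an unadjusted p under 0.05 in limma were 6 of 14, all higher in SAHA. The share in that direction was 11.9% over all genes and 20.2% over genes within 0.25 log2 of the signal of Drd4, 6.51. Those 6 markers included Ddc, above, and Pitx3, a transcription factor of these neurons, at 0.20 (SE 0.067). Foxa1, a transcription factor, had means of 5.70 ± 0.19 for saline and 6.21 ± 0.15 for SAHA (SD, n = 3), and Ret, a receptor of glial neurotrophic factors, differed by 0.30, as did En2, a midbrain transcription factor, by 0.29; Pitx3, Foxa1, Ret and En2 were named after their values were seen. Those 6 markers were brighter than 18.0% (En2) to 43.1% (Pitx3) of genes. Foxa1, at 26.4%, and En2 lie below the signal window around Drd4, so the share of 20.2% does not cover their range. The list's median signal was 6.41 and its median difference 0.098, which was 0.061 after quantile normalization. Whether these signals come from dopamine neurons was not tested.

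Downstream of the receptors, 16 of 20 G protein and cyclic AMP effector genes were lower in SAHA and 4 higher, with a median of -0.063. After quantile normalization the split was 10 lower and 10 higher, with a median of -0.012. At an unadjusted p under 0.05 there were 0 of 20, beside 17.4% of all genes. Adcy5, the main adenylyl cyclase of the striatum, was at -0.094 (SE 0.085), Ppp1r1b, which encodes the phosphatase inhibitor DARPP-32, at 0.12 (SE 0.088), and Prkar2b, a regulatory subunit of protein kinase A, at -0.12 (SE 0.061). Of 20 regulators of receptor signalling and trafficking, 15 were lower and 5 higher, with a median of -0.071, and after quantile normalization 12 were lower and 8 higher, with a median of -0.042. Akt1 and Ppp2ca, the kinase and the phosphatase catalytic subunit of the D2 receptor and beta-arrestin pathway, were at -0.17 (SE 0.061) and -0.15 (SE 0.059), the 2 members at an unadjusted p under 0.05, both lower, beside 5.56% of all genes in that direction. Arrb2, beta-arrestin 2 of that pathway, was at -0.10 (SE 0.056), and Klhl12, a ubiquitin ligase adaptor of the D4 receptor, at -0.16 (SE 0.073). No gene of these lists passed the adjusted threshold in limma. The receptor kinase Grk2 and the adenosine receptor Adora2a were not analysed here.

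**Figure D5:**
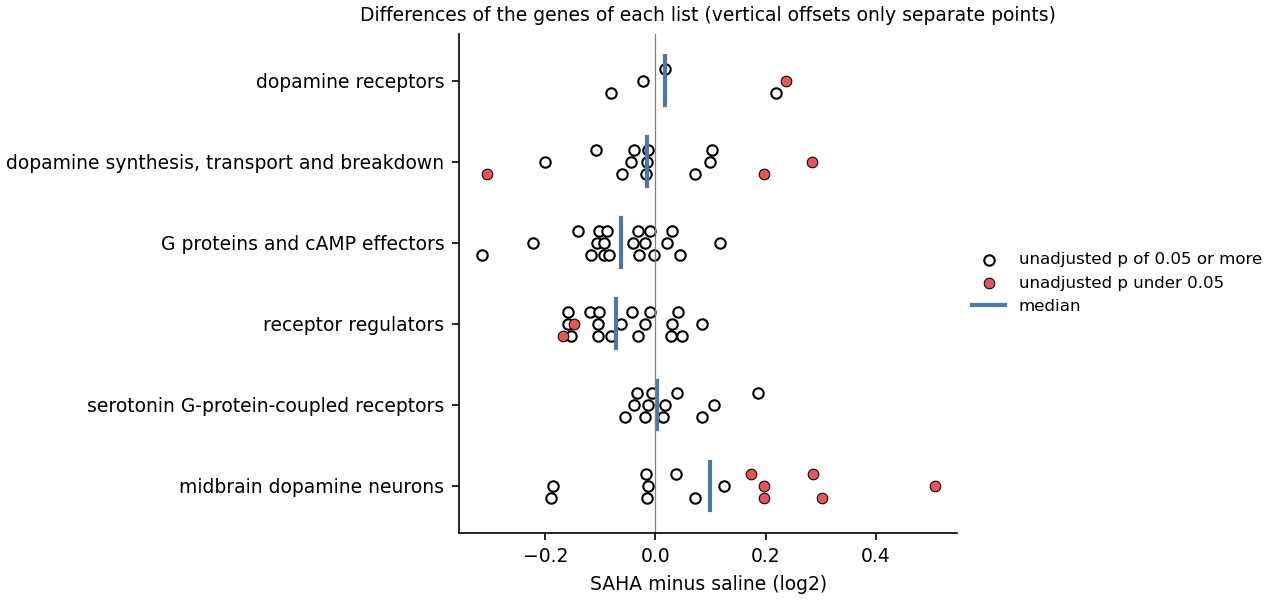
SAHA minus saline (log2) of every measured gene in 6 lists, as points filled red at an unadjusted p under 0.05, with the list median as a blue bar. Dopamine receptors have 1 red point, Drd4, while serotonin receptors have none and the midbrain dopamine neuron markers have 6, all to the right of 0.

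The 12 G-protein-coupled serotonin receptors, the nearest family of comparable size, had differences between -0.056 and 0.19 with a median of 0.0029, and 0 of 12 were at an unadjusted p under 0.05, beside 17.4% of all genes. The difference between the families was not tested.

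Likeness of pattern was measured as Pearson's r with each receptor over the 6 libraries, across 9663 genes at or above the median signal; the highest of so many values over 6 libraries is high in any case. Closest to Drd1 were Gas2, Lrig1 and Cdh22, at r of 0.988, 0.987 and 0.973, and closest to Drd2 were Lrp8, a reelin receptor, at 0.985, and Tfe3 and Zcchc4, at 0.978 and 0.965. Cttnbp2, Vwa5b2 and Tnrc6a were closest to Drd3, at 0.988, 0.984 and 0.977. The genes closest to Drd4 were Cyp2d40, a cytochrome P450, at 0.988, Pafah1b3, at 0.980, and AI507597, at 0.979, with differences of 0.55, 0.25 and 0.27 between the groups. Ahcyl2, Higd2a and Pygb, the brain glycogen phosphorylase, were closest to Drd5, at 0.994, 0.985 and 0.984, with differences of -0.035, -0.081 and -0.059. An r of at least 0.9 was reached by 34 genes for Drd1, 30 for Drd2, 84 for Drd3, 84 for Drd4 and 106 for Drd5.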

How the data were processed

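RNA from 6 libraries was amplified as whole-transcript cDNA, labelled with biotin and hybridised to Affymetrix arrays, per the labels' protocols. The values deposited by the authors are log2 probe set signals made with Affymetrix Expression Console and RMA, per the submitters' processing notes; versions and the genome build are not given in the sources used here. RMA corrects background, normalizes between arrays and summarises probes. Of 35556 probe sets, 21789 pair with 1 symbol in the platform annotation, 1621 with several and 12146 with none; the brightest with 1 symbol stood for a gene, which gave 19938 genes. The Entrez identifiers of 19855 were found in the RefSeq table of GRCm38.p6. The table held 0 sample columns that were not used.

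Groups came from the sample titles. Models from limma 3.58.1 (lmFit, then eBayes; R 4.3.3) were fitted over all genes, two-sided, without a block or filter, with Benjamini-Hochberg adjustment at 0.05, and the fit was tested on simulated data. Differences are SAHA minus saline. Alternatives were scalings, a filter, probe set rules, variance models, the replicate number as a block and libraries left out. The members and gene lists were chosen with earlier results of these data known. Genes are named by a rule: the receptors, the 3 members of smallest p and a fixed set from the pathway and striatal lists, and the 3 genes most like each receptor. The last leaves out predicted genes and the olfactory and vomeronasal receptors. The number of arrays limits the precision, with a median SE of 0.077 over genes. Figures were drawn with matplotlib 3.10.9.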

Additional observations from a re-analysis of the deposited data

How the results depend on the processing

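Drd2, Drd4 and Drd5 kept their direction in all the alternatives tried, and no receptor passed an adjusted p of 0.05 in any; 18 alternatives gave a value for Drd1 and 17 for each of the others, which lie below the median signal and so have none under that filter. With any single library left out, Drd1 lay between -0.13 and 0.070, Drd2 between 0.10 and 0.41, Drd3 between -0.047 and 0.11, Drd4 between 0.20 and 0.28 and Drd5 between -0.11 and -0.042. The sign of Drd1 turned with array weights, at 0.0068. That of Drd3 turned after median centring, at -0.021, quantile normalization, at -0.064, and cyclic loess, at -0.057, and without saline replicate 1 and SAHA replicate 3, at -0.050; the cause was not tested. The relation to striatal markers also moved with quantile normalization. Pearson's r was then 0.586 for Drd1 (exact permutation p = 0.211, adjusted 0.528) and 0.743 for Drd2 (exact permutation p = 0.0889, adjusted 0.444). Drd2 was thus the closer of these 2, where Drd1 was closer on the deposited values. For Drd3 r was -0.17. Over all genes, limma called 27 with only the 9969 genes at or above the median signal, 28 when the variance followed a trend and 31 when that trend was robust, the plain test called 1, and 3472 were at an unadjusted p under 0.05. The labels do not say that the replicate numbers pair the libraries. Deviations of same-numbered libraries from their group means correlated at -0.10, -0.079 and 0.015 over genes. Those of libraries with different numbers correlated between -0.084 and 0.15. With 3 libraries per group, these values cannot show whether the libraries pair. With the replicate number as a block, limma called 0 genes, and Drd2 was at 0.22 (SE 0.079, unadjusted p = 0.0303, adjusted 0.289) and Drd4 at 0.24 (SE 0.074, adjusted p = 0.247).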

Other observations

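Drd1 and Drd5 are known in deep-layer pyramidal neurons, and all 9 listed markers of those neurons were measured. Of these, 7 were lower in SAHA and 2 higher, with a median of -0.019 (6 and 3 after quantile normalization), and 3 were at an unadjusted p under 0.05, beside 17.4% of all genes; the genes below were named after their values were seen. Tle4, a corepressor of layer 6 neurons, had means of 8.23 ± 0.030 for saline and 8.03 ± 0.15 for SAHA (SD, n = 3), and Fezf2, a transcription factor of layer 5 neurons that project below the cortex, at 8.56 ± 0.025 and 8.40 ± 0.093. Nxph4, a neurexophilin of layer 6b, was at 6.04 ± 0.24 and 6.34 ± 0.10. Foxp2, a transcription factor of layer 6 neurons, differed by -0.088 (SE 0.055), and Ntsr1, the neurotensin receptor of those that project to the thalamus, by 0.22 (SE 0.098). Of 8 interneuron markers, 4 were higher and 4 lower, with a median of 0.014, and after quantile normalization 6 were higher and 2 lower, with a median of 0.073. None of these genes passed an adjusted p of 0.05 in limma.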
